A study of Rattus norvegicus with 27 samples.

Results

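The genes Thy1 (ENSRNOG00000006604), Vim (ENSRNOG00000018087) and Pdgfrb (ENSRNOG00000018461), which are used to recognise fibroblasts, were followed through 27 RNA-seq libraries of primary lung fibroblasts from Sprague-Dawley rats. They were chosen by gene ID, Thy1 because it encodes the antigen by which the cells had been sorted, and all 3 of 3 were found among the 32753 gene rows of the count table and passed the filter on low counts that left 14258 genes. Per the labels, the fibroblasts were isolated with beads against CD90 and kept for 2, 4, 7 or 14 days. They were seeded in MucilAir medium on plastic or on polydimethylsiloxane (PDMS, a soft silicone of 3 to 5 kPa). Headers of the count columns mark every library as WT (wild type), MonoCulture and Non, a term they do not explain. Every group shared the sort, the medium and a coating of rat tail collagen I at 38 µg/ml. PDMS was sampled at days 2, 4, 7 and 14 and plastic at days 4, 7 and 14, with 4 libraries in each group except Plastic day 7, which has 3. The labels name neither the animal nor the cell isolation or dish behind a library, so p-values here reflect variation among libraries that may be partly technical. Totals ran from 17.3 to 25.3 M counts (M, mega) per library.

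Thy1 encodes Thy-1 or CD90, a small glycoprotein held in the outer leaflet of the cell membrane by a lipid anchor. Lung fibroblasts occur with and without it at their surface. Vim encodes vimentin, the main intermediate filament protein of mesenchymal cells. Pdgfrb encodes the beta receptor for platelet-derived growth factor, a receptor tyrosine kinase of fibroblasts and pericytes that drives their growth and migration. All 3 genes had reads in every library. The lowest counts were 324 for Thy1, 34980 for Vim and 759 for Pdgfrb, all in libraries of PDMS day 2. Vim took 0.202% to 0.619% of a library's reads. These reads alone do not check the fibroblast label, and markers of other cell types could not be looked up, because no table at hand pairs these gene IDs with symbols. The part of other cells in the results was therefore not tested, and in bulk RNA fewer cells of a type and less RNA per cell cannot be told apart.

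**Figure D1:**
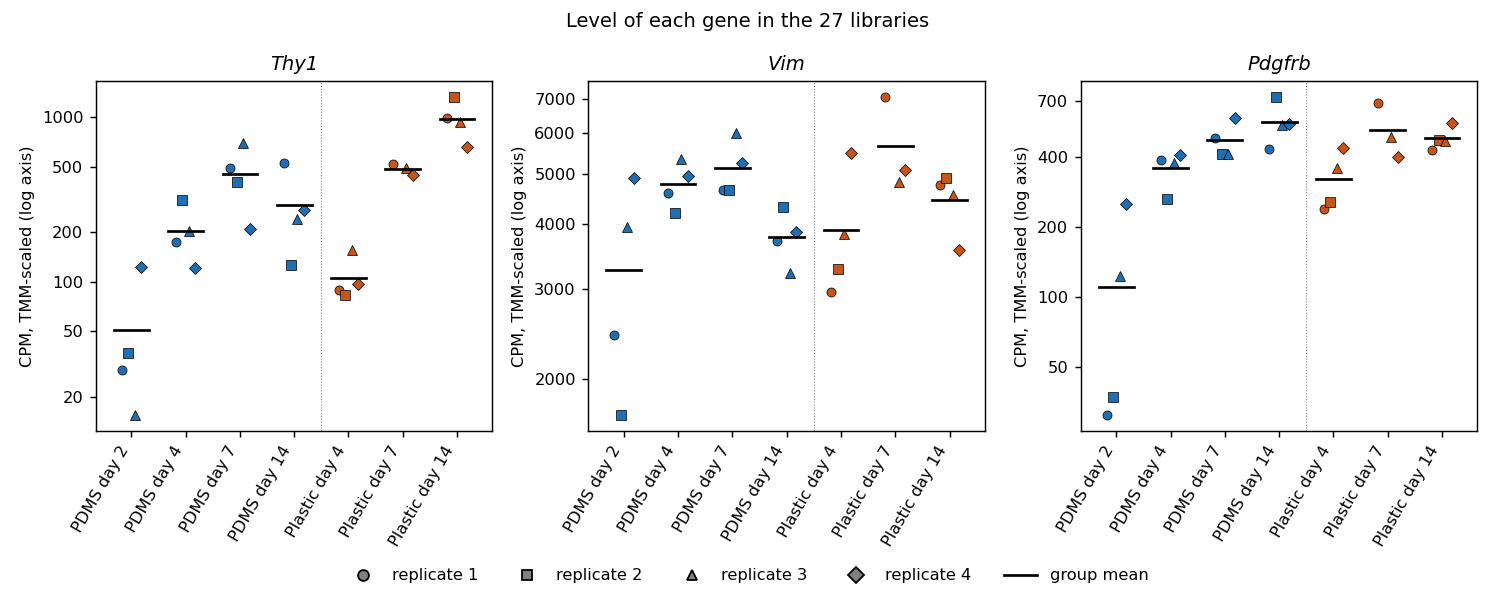
CPM (counts per M reads, M for mega, scaled by TMM, a normalisation between libraries; logarithmic axis) of Thy1, Vim and Pdgfrb in each of the 27 libraries, by group; points are libraries, shaped by replicate number, and bars are group means. Thy1 spans from 15.5 to 1325 CPM and reaches its highest values at Plastic day 14, Pdgfrb is lowest at PDMS day 2, and Vim lies between 1709 and 7057 CPM throughout.

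Thy1, the sort antigen, had its lowest level at the earliest time and its highest on plastic after 14 days, 85.4 times apart between the extreme libraries. At PDMS day 2 its 4 libraries held 29.2, 37, 15.5 and 122.7 CPM (counts per M of the TMM-scaled library, replicates 1 to 4). Replicate 4 stood apart from the other three and lay just above the lowest library of PDMS day 4. At PDMS day 4 the libraries held 174, 311, 203 and 121 CPM. Those of PDMS day 7 held 489, 403, 697 and 209 CPM. All libraries of PDMS day 7 but replicate 4 were above every library of PDMS day 4. PDMS day 14 gave 523, 127, 241 and 274 CPM, so replicate 1 lay at the level of day 7 and replicate 2 at the lower end of day 4. Means over the 4 libraries of days 2, 4, 7 and 14 on PDMS were 51.1 ± 48.5, 202.3 ± 80.1, 450 ± 203 and 291 ± 167 CPM (SD, n = 4 each).

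On plastic every library of a later day was above every library of an earlier one. Plastic day 4 held 89.0, 82.9, 154.9 and 96.3 CPM of Thy1 (replicates 1 to 4). Plastic day 7 held 518, 492 and 443 CPM (replicates 1, 3 and 4). Plastic day 14 held 980, 1325, 935 and 661 CPM. The means over these days were 105.8 ± 33.2, 484 ± 37.9 and 975 ± 273 CPM (SD, n = 4, 3 and 4). Between days 4 and 14 on plastic Thy1 rose 9.22-fold (log2 fold change 3.20 ± 0.53, SE; edgeR quasi-likelihood test, adjusted p = 0.000367). In that comparison edgeR called 32.6% of all tested genes, 14.3% as higher at day 14. A separation of the libraries in this direction was found in 13.2% of genes, and 95.5% of genes had a change of this size or smaller. Leaving out any 1 of the 8 libraries kept the call, with log2 fold changes of 3.02 to 3.49.

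Neither step along the way on plastic passed by itself. For day 7 over day 4 the log2 value was 2.19 ± 0.53 (SE; edgeR adjusted p = 0.105), with no overlap of the libraries, which 5.48% of tested genes showed in this direction. edgeR called 0 genes in this comparison, where 18.7% had an unadjusted p under 0.05, DESeq2 called 388 and limma-voom 2. DESeq2 called Thy1 (log2 fold change 2.21, adjusted p = 0.00660), and so did edgeR without Plastic day 4 replicate 3 (2.47, adjusted p = 0.0342). That was 1 of 7 edgeR fits of this step without 1 library, and the share of all genes called in it was not counted. Over all alternatives without a library left out, the adjusted p of this step ran up to 0.328, with closely alike pairs of plastic libraries summed. From day 7 to day 14 the log2 fold change was 1.01 ± 0.54 (edgeR adjusted p = 0.406), again with no overlap, as for 7.35% of genes in this direction, and edgeR called 0.0842% of genes.

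On PDMS, Thy1 passed the test in the first step. Between days 2 and 4 it rose 3.96-fold (log2 fold change 1.99 ± 0.51, SE; edgeR adjusted p = 0.0239, n = 4 and 4), where edgeR called 10.0% of genes, 5.17% as higher. The libraries overlapped, with replicate 4 of day 2 just above replicate 4 of day 4. The call was lost without PDMS day 2 replicate 1 (log2 fold change 1.81, adjusted p = 0.105), replicate 2 (1.85, adjusted p = 0.0544) or replicate 3 (1.70, adjusted p = 0.0593), and in a fit of these groups alone (1.99, adjusted p = 0.145). Without PDMS day 2 replicate 4 the log2 fold change was 2.91 (adjusted p = 0.000279). Over the full course, day 14 against day 2, Thy1 rose 5.70-fold (log2 fold change 2.51 ± 0.52, edgeR adjusted p = 0.000477). The libraries did not overlap, as for 19.8% of genes in this direction, and edgeR called 51.6% of all genes, 24.3% as higher. A change of this size or smaller was found in 87.2% of genes. Without PDMS day 2 replicate 4 the log2 fold change was 3.46 (edgeR adjusted p = 1.07e-05), and all 8 fits without 1 library kept the call.

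No later step of Thy1 on PDMS passed. Its log2 fold change was 1.15 ± 0.49 for day 7 over day 4 (SE; edgeR adjusted p = 0.334), -0.63 ± 0.49 for day 14 over day 7 (adjusted p = 0.423) and 0.52 ± 0.49 for day 14 over day 4 (adjusted p = 0.427). The share of all genes called in these steps was 0.147%, 5.53% and 28.6%. The 95% interval of the last difference, -0.49 to 1.54 on the log2 scale, includes both no change and a 2.90-fold rise.

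The mean level of Thy1 was higher on PDMS at day 4 and higher on plastic at day 14, while at day 7 the small difference changed sign with library size in place of TMM (log2 0.0079). At day 4 Thy1 was at 202.3 CPM on PDMS and 105.8 on plastic (log2 fold change 0.94 ± 0.49, SE; edgeR adjusted p = 0.623), with 3 of 4 PDMS libraries above every plastic one. In that comparison edgeR called 0 genes, 8.74% had an unadjusted p under 0.05, DESeq2 called 24 genes and limma-voom 0. At day 7 the means were 450 and 484 CPM (log2 fold change -0.11 ± 0.53, adjusted p = 0.938), and all plastic libraries lay inside the PDMS range. At day 14 they were 291 and 975 CPM, 3.35-fold lower on PDMS (log2 fold change -1.74 ± 0.50, unadjusted p = 0.00209, adjusted p = 0.245). The highest PDMS library at day 14, with 523 CPM, was below the lowest plastic library, with 661. Such a separation with PDMS lower was found in 2.91% of genes.

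At day 14 edgeR called 0 of 14258 genes between the substrates, while 8.88% had an unadjusted p under 0.05, and DESeq2 called 113 and limma-voom 2. Thy1 was among those of DESeq2, with a log2 fold change of -1.76 and an adjusted p of 0.0411, and not among those of limma-voom (-1.89, adjusted p = 0.201). The edgeR adjusted p over fits without 1 library was 0.0899 to 0.578, and it was 0.611 with the closely alike plastic pairs summed. The change of Thy1 from day 4 to day 14 on PDMS, less that on plastic, was -2.68 ± 0.70 log2 units (interaction, SE; edgeR unadjusted p = 0.000917, adjusted p = 0.633). Its size was at or above that of 98.6% of genes. edgeR called 0 genes for this interaction and gave an unadjusted p under 0.05 for 6.81%. DESeq2 called 4 genes, with an adjusted p of 0.0662 for Thy1, and limma-voom called 0. Between day 7 and day 14, a comparison added after seeing the data, the interaction was -1.64 ± 0.73 (edgeR adjusted p = 0.712, 0 genes called, 6.87% with an unadjusted p under 0.05, 1 called by DESeq2 and 0 by limma-voom).

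**Figure D2:**
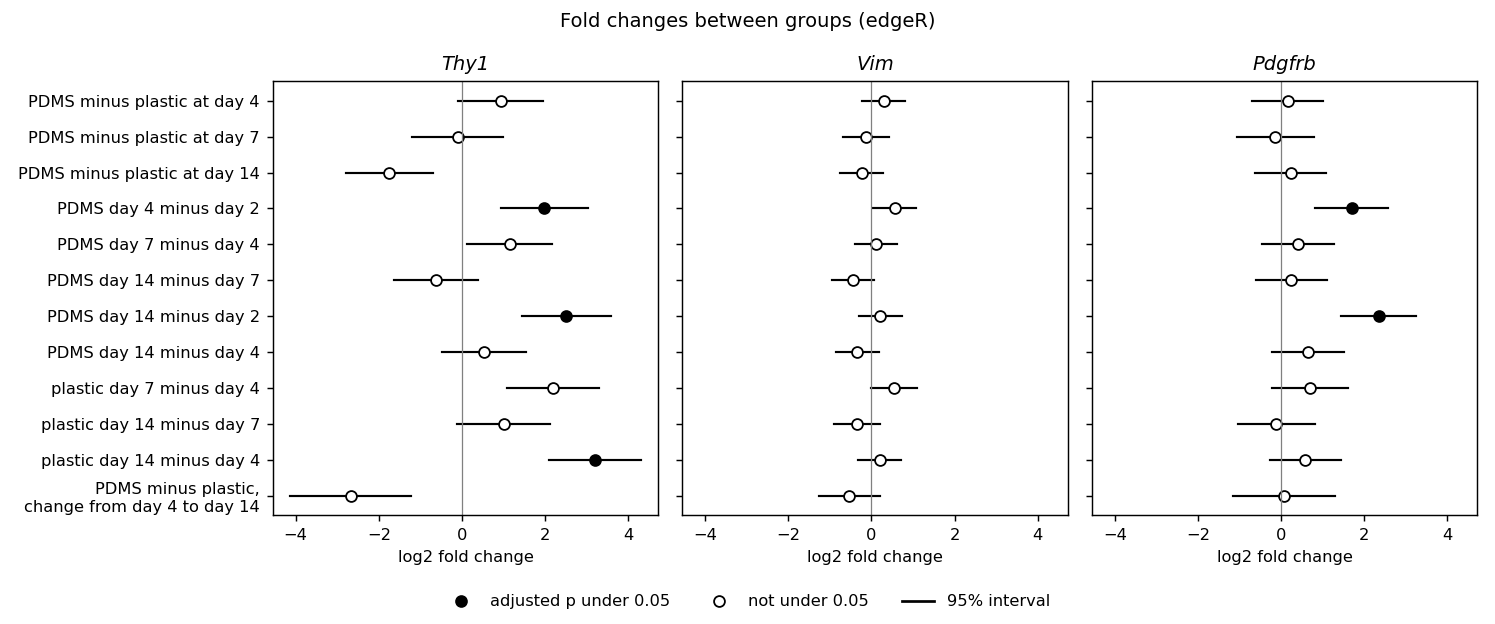
Log2 fold changes of Thy1, Vim and Pdgfrb for 11 comparisons between groups and for the interaction described above (bottom line), with unadjusted 95% intervals; filled points have an edgeR adjusted p under 0.05. Thy1 has 3 filled points, Pdgfrb 2 and Vim 0, and the intervals of Vim are the narrowest.

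Pdgfrb, the growth factor receptor, rose on PDMS between days 2 and 4, and its differences between substrates did not pass at any day. At PDMS day 2 its libraries held 31.1, 37.1, 122.7 and 251.4 CPM (replicates 1 to 4). At PDMS day 4 they held 388, 263, 376 and 408 CPM. The groups did not overlap, although replicate 4 of day 2 came close to replicate 2 of day 4. The log2 fold change was 1.70 ± 0.43 (SE, edgeR adjusted p = 0.0225), a 3.25-fold rise. Of all genes, edgeR called 10.0% in this step, 5.17% as higher, and 5.11% were separated in this direction. The call was lost without PDMS day 2 replicate 1 (1.39, adjusted p = 0.0835), without PDMS day 4 replicate 4 (1.63, adjusted p = 0.0629) and in a fit of these groups alone (1.70, adjusted p = 0.177). Without PDMS day 2 replicate 4 the value was 2.50 (adjusted p = 0.000119).

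Later PDMS libraries held 483, 413, 414 and 591 CPM of Pdgfrb at day 7 and 434, 726, 549 and 554 CPM at day 14. All libraries of day 7 and of day 14 were above all of day 4, a separation that 4.22% and 16.3% of genes showed in this direction. The steps themselves did not pass. Day 7 over day 4 gave 0.41 ± 0.42 (log2, SE; edgeR adjusted p = 0.819), day 14 over day 7 one of 0.25 ± 0.42 (adjusted p = 0.732) and day 14 over day 4 one of 0.66 ± 0.42 (adjusted p = 0.234). In a fit of the libraries of days 4 and 14 alone the last value was 0.66 with an edgeR adjusted p of 0.0341. The share of all genes called in that fit was not counted, so the call says nothing particular about Pdgfrb. In the fit of all 27 libraries, 0.147% of genes were called in day 7 over day 4. For day 14 over day 7 the share was 5.53%, and for day 14 over day 4 it was 28.6%. Over the full course Pdgfrb went from 110.6 ± 102.8 to 566 ± 120 CPM (SD, n = 4 each) and rose 5.12-fold (log2 fold change 2.36 ± 0.44, edgeR adjusted p = 0.000195). In that comparison 51.6% of all tested genes were called, 24.3% as higher, and 86.3% had a change of this size or smaller. Every fit without 1 library kept the call of Pdgfrb, and the value was 3.19 without PDMS day 2 replicate 4.

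The plastic libraries of day 4 held 238, 255, 358 and 436 CPM of Pdgfrb. Those of day 7 held 682, 486 and 400 CPM (replicates 1, 3 and 4), and those of day 14 held 427, 474, 470 and 561 CPM. The libraries of the 3 days overlapped. Day 14 over day 4 gave 0.59 ± 0.42 (log2 fold change, SE, edgeR adjusted p = 0.286) beside the 0.66 on PDMS. In this plastic comparison edgeR called 32.6% of genes. The interaction was 0.07 ± 0.59 (edgeR adjusted p = 0.994, 95% interval -1.14 to 1.29), with 0 genes called. PDMS minus plastic was 0.16 ± 0.42, -0.14 ± 0.45 and 0.23 ± 0.42 on the log2 scale at days 4, 7 and 14 (edgeR adjusted p of 0.999, 0.904 and 0.914). Of all genes, 0%, 0.849% and 0% were called at these days. The 95% interval at day 14, -0.63 to 1.09, leaves room for a difference of up to 2.13-fold.

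Vim, the filament gene, passed in 0 of 11 comparisons with edgeR, at adjusted p values of 0.148 and above. In 1 of them, PDMS day 4 over day 2, its unadjusted p was under 0.05, where 10.0% of all genes passed even after adjustment. With DESeq2 and limma-voom Vim passed in 0 as well. In 3 of the 11 comparisons edgeR called 0 genes at all, and in 3 others 0.0842% to 0.849%. A missing call of Vim there says nothing particular about it. On PDMS edgeR called 10.0% of genes in day 4 over day 2 and 5.53% in day 14 over day 7. The shares for PDMS day 14 were 51.6% over day 2 and 28.6% over day 4. Plastic day 14 over day 4 had 32.6% of genes called. The highest library of Vim held 4.13 times the CPM of its lowest. On PDMS the libraries held 2435, 1709, 3954 and 4919 CPM at day 2, then 4607, 4203, 5346 and 4955 at day 4. They held 4651, 4655, 6007 and 5259 CPM at day 7 and 3716, 4313, 3221 and 3857 at day 14. The day 2 libraries were the most unequal, and every library of day 14 lay below every one of day 7, which 10.7% of genes showed in this direction. Its log2 fold change was 0.55 ± 0.25 for day 4 over day 2 (SE; edgeR adjusted p = 0.148), 0.11 ± 0.25 for day 7 over day 4 (adjusted p = 0.950) and -0.45 ± 0.25 for day 14 over day 7 (adjusted p = 0.250). Without PDMS day 2 replicate 4 the first of these was 0.83 and passed (edgeR adjusted p = 0.0179). Vim passed in only 1 of the 8 fits of this step without 1 library. The share of all genes called in that fit was not counted. PDMS day 14 over day 2 gave 0.21 ± 0.25 (edgeR adjusted p = 0.486). PDMS day 14 over day 4 gave -0.34 ± 0.25 (edgeR adjusted p = 0.304).

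Plastic day 4 libraries held 2960, 3282, 3833 and 5485 CPM of Vim. Plastic day 7 libraries held 7057, 4825 and 5090 CPM (replicates 1, 3 and 4), and Plastic day 14 libraries 4756, 4917, 4552 and 3571 CPM. Replicate 1 of Plastic day 7 was the highest of all libraries, and it was also the highest of plastic for Pdgfrb. The log2 difference of Vim was 0.54 ± 0.27 between the first 2 plastic days (SE, edgeR adjusted p = 0.276) and -0.35 ± 0.27 between the last 2 (adjusted p = 0.597). Plastic day 14 over day 4 gave 0.19 ± 0.25 (edgeR adjusted p = 0.572). PDMS minus plastic was 0.30 ± 0.25, -0.14 ± 0.27 and -0.24 ± 0.25 at days 4, 7 and 14 (log2 scale, SE; edgeR adjusted p of 0.872, 0.832 and 0.841). The 95% intervals of these differences, -0.22 to 0.81, -0.69 to 0.42 and -0.75 to 0.28, all lie within a 2-fold change either way.

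Ranked by mean log2 CPM, the groups of Thy1 began with PDMS day 2 and went on with plastic and then PDMS at day 4. PDMS at day 14, PDMS at day 7 and plastic at day 7 followed, and Plastic day 14 was the highest. Of these 6 steps between neighbours only the last had libraries that did not overlap. Pdgfrb shared the first 3 places with Thy1, and PDMS at day 7, plastic at days 14 and 7 and then PDMS at day 14 came above them. Among its neighbours only PDMS at days 4 and 7 did not overlap. Vim was lowest on PDMS at days 2 and 14, then came plastic at days 4 and 14, PDMS at days 4 and 7 and plastic at day 7, with overlap at each of the 6 steps. PDMS day 2 was the lowest group for each of the 3 genes.

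The spread among replicates differed between genes and groups. Within groups Thy1 had an SD of 0.72 log2 units (20 degrees of freedom), Pdgfrb one of 0.62 and Vim one of 0.35. These lay at the 77.8th, 72.5th and 50.2nd percentile of all tested genes. Among the 1000 genes nearest in mean log2 CPM the percentiles were 93.2, 90.01 and 68.8. PDMS day 2 was the widest group for each gene, with a coefficient of variation of 95.0% for Thy1, 93.0% for Pdgfrb and 44.6% for Vim. For Thy1 it was 39.6% to 57.3% in the later PDMS groups and 7.82% to 31.4% in the plastic groups. Outside PDMS day 2 (23 libraries), 52.4% of the variance of Thy1 (log2 CPM, sums of squares) lay between days, 3.21% between substrates, 25.7% in their interaction and 18.7% between replicates. For Pdgfrb these shares were 51.6%, 1.62%, 3.23% and 43.6%, and for Vim 31.2%, 0.00229%, 17.9% and 50.9%. The shares are descriptions, and each holds part of the spread between replicates.

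Ratios of read counts within a library do not depend on how libraries are scaled. The log2 ratio of Thy1 to Vim on PDMS averaged -6.31 ± 1.21, -4.64 ± 0.66, -3.64 ± 0.70 and -3.87 ± 0.93 at days 2, 4, 7 and 14 (SD, n = 4 each). The plastic means at days 4, 7 and 14 were -5.21 ± 0.50, -3.53 ± 0.24 and -2.22 ± 0.23 (n = 4, 3 and 4). Between PDMS and plastic at day 14 the difference of -1.65 had no overlap (two-sided exact permutation p = 0.0286, adjusted 0.0857 over 33 tests). The 3 plastic days were likewise separate from each other, with differences of 1.68 and 1.31 (exact permutation p of 0.0286 both times, adjusted 0.0857). With 3 or 4 libraries a group, 0.0286 is the smallest p this test can give, and 0 of the 33 tests passed after adjustment. The ratios reuse the reads of the genes compared above and are not separate evidence. How many other gene pairs separate in this way was not counted.

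The ratio of Pdgfrb to Vim had a higher mean at each later day on PDMS. Its log2 means there were -5.28 ± 0.84, -3.75 ± 0.20, -3.44 ± 0.31 and -2.76 ± 0.26 at days 2, 4, 7 and 14 (SD, n = 4 each). Day 4 was above day 2 by 1.53 with no overlap (exact permutation p = 0.0286, adjusted 0.0857). Day 7 was above day 4 by 0.31 in the mean, with overlap (exact permutation p = 0.143, adjusted 0.262). Day 14 was above day 7 in every library, by 0.69 in the mean (exact permutation p = 0.0286, adjusted 0.0857). The plastic means at days 4, 7 and 14 were -3.60 ± 0.12, -3.45 ± 0.19 and -3.20 ± 0.36 (n = 4, 3 and 4). Thy1 against Pdgfrb gave the widest gap between substrates. At day 14 the PDMS libraries averaged -1.11 ± 1.14 (log2 ratio, SD, n = 4) and the plastic ones 0.98 ± 0.53 (difference -2.09, exact permutation p = 0.0571, adjusted 0.118). The highest PDMS library, replicate 1 at 0.27, overlapped the lowest plastic one, replicate 4 at 0.24. Between the first and last plastic days the ratio went from -1.61 ± 0.42 to 0.98 with no overlap (difference 2.58, exact permutation p = 0.0286, adjusted 0.0857).

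**Figure D3:**
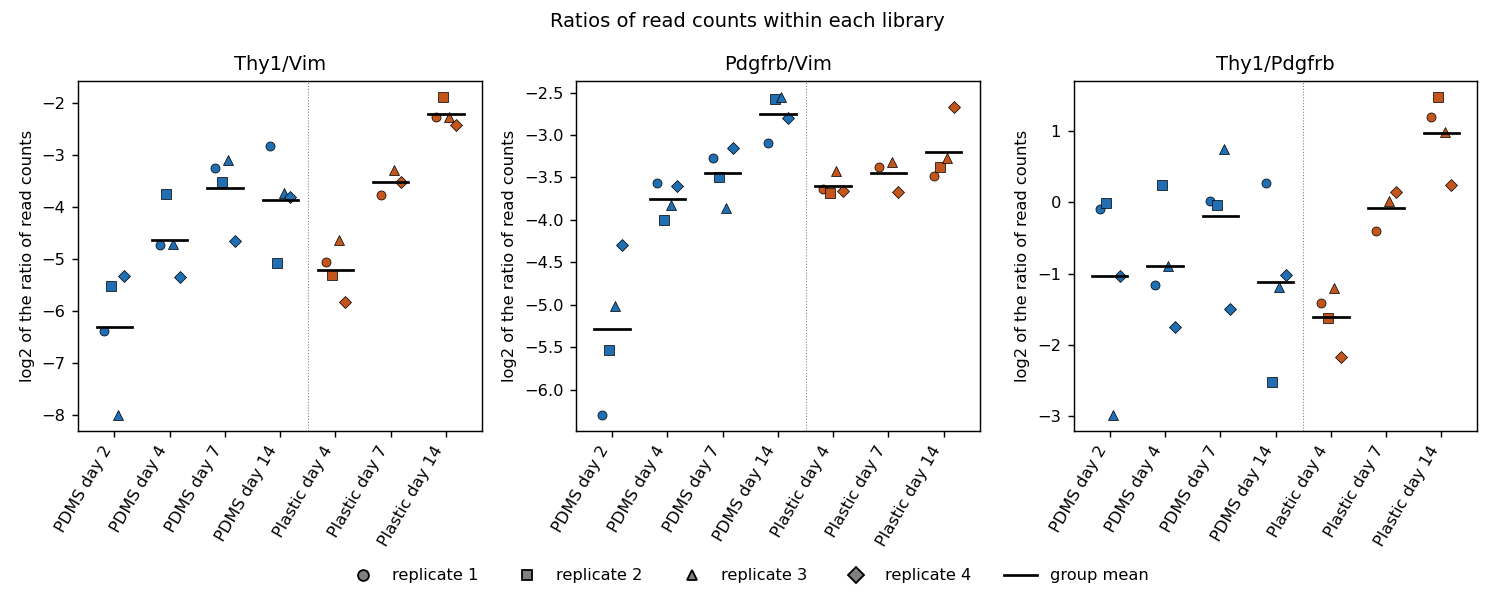
Log2 ratios of the read counts of Thy1 to Vim, Pdgfrb to Vim and Thy1 to Pdgfrb in each of the 27 libraries, by group; points are libraries, shaped by replicate number, and bars are group means. The Thy1 to Vim ratio climbs to -2.22 on plastic at day 14, above all 4 PDMS libraries of that day.

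Libraries high in Vim for their group tended to be high in Pdgfrb as well. Over the 27 libraries the deviations from the group means (log2 CPM) gave r = 0.80 by Pearson and rho = 0.67 by Spearman (two-sided permutation within groups, p = 0.00645 and 0.00851, adjusted 0.0387 and 0.0511 over 6 relations). After adjustment r passed and rho did not. Without PDMS day 2 replicates 2 and 4, the farthest in Vim, r was 0.65. Over the 23 libraries outside PDMS day 2 r was 0.59 and rho 0.49 (permutation p = 0.0228 and 0.0494, adjusted 0.0585 and 0.148), which does not pass after adjustment. Values of 1 library share its scaling factor, and 2 pairs of plastic libraries were closely alike, so the points are not fully independent. How many other genes deviated together with Vim or Pdgfrb to this degree was not counted, so the relation may not be particular to these genes.

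No relation of Thy1 with Vim or Pdgfrb passed after adjustment. Whether the r of Thy1 differed from that of Vim with Pdgfrb was not tested. The deviations of Thy1 had an r of 0.20 with those of Vim and of 0.12 with those of Pdgfrb (permutation p = 0.654 and 0.832). Outside PDMS day 2 the r of Thy1 with Pdgfrb was -0.48 and rho -0.33 (permutation p = 0.0293 and 0.163, adjusted 0.0585 and 0.326), and r was -0.32 without PDMS day 14 replicates 1 and 2. In those 2 libraries the genes stood in opposite order, with 523 CPM of Thy1 and 434 of Pdgfrb in replicate 1 and 127 and 726 CPM in replicate 2.

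**Figure D4:**
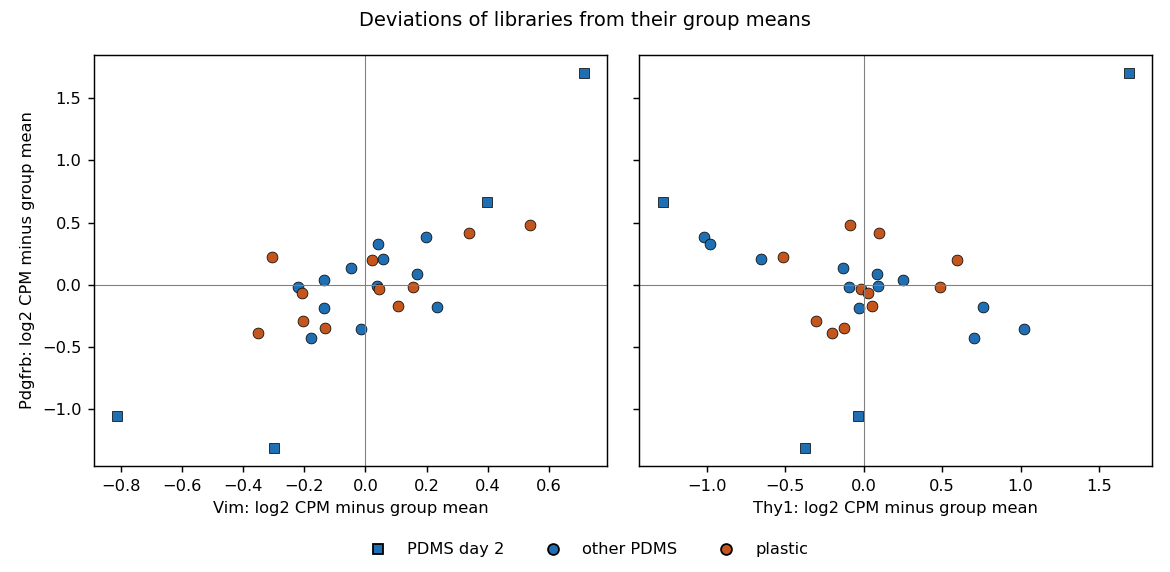
Deviation of each library from its group mean (log2 CPM) for Pdgfrb against Vim (left) and against Thy1 (right); squares are PDMS day 2 libraries, circles the others. Pdgfrb and Vim lie along a rising line (r of 0.80), whose ends are PDMS day 2 libraries, and Pdgfrb and Thy1 do not (r of 0.12).

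The genes most alike in pattern were looked up by Pearson r of log2 CPM over the 27 libraries, among 10509 other genes with a mean of at least 5 CPM. ENSRNOG00000061373 was most like Thy1 (r = 0.91, rho = 0.88), ENSRNOG00000060005 most like Vim (r = 0.92, rho = 0.89) and ENSRNOG00000008365 most like Pdgfrb (r = 0.97, rho = 0.79). An r over 0.8 was reached by 2.70% of these genes with Thy1, by 0.590% with Vim and by 5.31% with Pdgfrb. These are descriptions, and the day 2 libraries weigh on them. The files do not pair the IDs with names.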

How the data were processed

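Raw counts, deposited by the authors for Ensembl gene IDs, came with 1 column per library. The table's 28 columns include 1 of no listed sample, headed as plastic at day 2. That column was not used, so whether the low levels of PDMS day 2 also occur on plastic was not tested. Depth-scaled and variance-stabilized tables were not used. Per the series design text, FastQC 0.11.2, bamUtil 1.0.11, dupRadar 1.4 and Cufflinks were used, and the submitters' processing notes give Cufflinks 2.2.1 and name STAR and DESeq2 without a role. Neither the counting program nor its strand setting, build or annotation is given in the sources at hand, and they are therefore not stated; reads shared with overlapping or near-identical genes may be split, and no coordinates are printed. Symbols of the 3 IDs come from the request that chose them, and the RefSeq table at hand (GRCr8) lists 0 Ensembl IDs to check them.

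Tests used edgeR 4.0.16 (R 4.3.3): filterByExpr (a count of about 10, a total of at least 15), TMM, and 1 quasi-likelihood fit of all 27 libraries with a mean per group, two-sided, Benjamini-Hochberg adjusted over 14258 genes and called under 0.05. SE is the absolute log2 fold change divided by the root of the F statistic, and log2 CPM has a prior count of 2. Ratios used exact permutation tests. DESeq2 1.42.0, limma-voom (limma 3.58.1), other scalings and filters, a replicate block and fits without 1 library were alternatives. The fit was tested on simulated counts, with 100 genes changed 2-fold and 100 changed 4-fold in 1 group. All other genes had 1 mean in all groups, and genes were drawn independently. The fit recovered 37% to 46% of simulated 2-fold changes and 71% to 77% of 4-fold changes, depending on the comparison. Of unchanged genes, 0.0217% to 0.0433% were called. In the data up to 51.6% of genes were called in a comparison, so these rates are not the power or error rate of the tests above. The members, lists and comparisons were chosen with earlier results of these data known. Named genes beyond the members were the most alike ID per member; marker and pathway lists, written as symbols, could not be matched and were not run.

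Libraries of the same replicate number deviated together in all 4 pairs of PDMS day 4 and PDMS day 2 (correlation over genes 0.14 to 0.57). Only 1 of 4 libraries there correlated best with its own number. In no other comparison did all pairs exceed 0.1. In plastic day 7 over day 4, 2 of 3 libraries correlated best with their own number (-0.28 to 0.76). Between the substrates at days 4 and 14, and in plastic day 14 over day 4, 2 of 4 did. Whether the numbers mark pairs was not tested. Plastic day 4 replicates 1 and 2 and Plastic day 14 replicates 2 and 3 were closely alike, at 8.13 and 8.55 times the variance of counting noise, against 34.0 to 413 in the other pairs of all groups, and were kept as separate libraries.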

Additional observations from a re-analysis of the deposited data

How the results depend on the processing

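Of 753 recomputed log2 fold changes, 731 kept their direction and their side of the threshold, 10 changed sign, 7 lost a call and 5 gained one, and in no case was the cause tested. Of 321 recomputed ratio differences 14 changed sign. No ratio had passed, and 0.0857 was the lowest adjusted p under any alternative, so these tests say nothing of calls. None of the sign changes was in a called result. With library size in place of TMM, Thy1 between the substrates at day 7 was 0.0079 (log2). DESeq2 added Thy1 between the substrates at day 14 (-1.76) and from day 4 to day 7 on plastic (2.21). Fits of the compared groups alone ended the day 2 to day 4 calls on PDMS (Thy1 1.99, Pdgfrb 1.70) and added Pdgfrb from day 4 to day 14 on PDMS (0.66). The share of all genes called in such fits, or in fits without 1 library, was not counted. DESeq2's size factors, limma-voom and both filters changed no call and no sign, and neither did the closely alike plastic pairs summed, an alternative chosen after seeing the data. A prior count of 2 changed no sign of a ratio. Over all genes, DESeq2 and limma-voom called 781 and 42 between the substrates at day 7 (edgeR 121), 2414 and 1225 in PDMS day 4 over day 2 (edgeR 1428), 383 and 7 in day 7 over day 4 (edgeR 21), 1833 and 1033 in day 14 over day 7 (edgeR 788), and 364 and 0 in plastic day 14 over day 7 (edgeR 12).

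Leaving out 1 library, where a call or sign changed, gave these ranges (log2). PDMS day 4 over day 2 ran from 1.70 to 2.91 for Thy1, 0.32 to 0.83 for Vim, 1.39 to 2.50 for Pdgfrb and -0.51 to 0.48 for Thy1/Pdgfrb. PDMS day 14 over day 2 ran from -0.0096 to 0.52 for Vim and -0.74 to 0.38 for Thy1/Pdgfrb, and day 14 over day 4 from -0.68 to 0.24 for the latter. Thy1/Vim from day 7 to day 14 on PDMS ran from -0.58 to 0.17. Plastic day 7 over day 4 ran from 2.09 to 2.47 for Thy1, and day 14 over day 7 from -0.27 to 0.12 for Pdgfrb. PDMS minus plastic at day 7 ran from -0.40 to 0.13 for Thy1, -0.24 to 0.054 for Vim, -0.30 to 0.10 for Pdgfrb, -0.28 to 0.23 for Thy1/Vim, -0.10 to 0.15 for Pdgfrb/Vim and -0.43 to 0.32 for Thy1/Pdgfrb. Interactions ran from -0.11 to 0.18 (Pdgfrb, day 14 against day 4) and -0.29 to 0.0031 (Vim, day 14 against day 7).

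The replicate block changed no call and no sign in 42 log2 fold changes and no sign in 33 ratios. From PDMS day 2 to day 4, where all pairs of the same number deviated together, the block gave 1.98 for Thy1 (edgeR adjusted p = 0.0317). For Vim it gave 0.59 (0.123) and for Pdgfrb 1.88 (0.0137). Each gene had at least 324 reads in each library. What limited the calls was not tested.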
